A study of Mus musculus with 8 samples.

Results

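The serpins are a family of proteins that share 1 fold, most of which trap a serine protease in a bait loop and inactivate it. The genes described here are all those in the table of pancreas expression whose symbol starts with Serpin, with the exception of Serping1. They were 26 of the 15047 genes measured, and they were grouped by the clade letter of their symbol. Clade a held 8 genes, clade b 10, clades e and i 2 each, and clades c, d, f and h 1 each. The annotation of the same mouse assembly lists 61 protein-coding genes with such a symbol, among them Serping1 and 25 of the 26 members. Serpinb10, the remaining member, is annotated there as a polymorphic pseudogene.

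An inhibitory serpin offers its loop as a substrate, and the protease that cuts it stays bound and is cleared with it. Members of clades a, c, d, e and f are mostly secreted into blood or matrix, where they control coagulation, fibrinolysis and proteases of inflammation, whereas clade b members mostly stay inside cells and protect them from their own or from leukocyte proteases. Some members inhibit nothing, such as the collagen chaperone of clade h, the hormone carrier Serpina7 and the epithelial gene Serpinb5. In the pancreas the family is best known for Serpini2, also called pancpin, which acinar cells make and without which mice lose exocrine function.

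RNA-Seq was made on the pancreas of 8 male mice to compare lean with obese animals. The LFD group (n = 3) held C57BL/6 WT mice on low-fat diet, the HFD group (n = 3) mice of the same strain on a diet with 60% of calories from fat, and the ob/ob group (n = 2) held C57BL/6J; ob/ob mice, which lack leptin, on standard chow. Mice of all 3 groups were put on their diets when 4 weeks old, and the description of the study gives 10 weeks of diet, worded so that it may apply to LFD only or to every group. According to the methods and legends of the study, the pancreas of every mouse, LFD included, also carried a transplant of mT organoids, grown from pancreatic tumours of genetically engineered mice, whereas the labels name the tissue only as pancreas. RNA of graft, host pancreas and infiltrating cells therefore could not be told apart. The diet differed between all groups, and the genotype of the ob/ob mice differed together with their diet. The values were rlog values, a log2 scale corrected for library size by the authors, in which 1 unit is a doubling and differences between low values are drawn towards 0. Counts were not used here, so the depth of each library is unknown and a low value could not be told from an absent transcript.

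The promoters of 4 members are shown because these genes carry the main results, namely the pair Serpini2 and Serpini1 on chromosome 3, Serpinh1 and Serpina7. Each sequence runs from 250 bases before to 50 bases after the start given by RefSeq on GRCm38.p6, in the direction of the gene, and lies at chr3:75270029-75270328 on the minus strand, chr3:75557243-75557542 on the plus strand, chr7:99353190-99353489 on the minus strand and chrX:139085187-139085486 on the minus strand, in the order shown. RefSeq holds 2 promoter entries for Serpina7, of which the first is shown. Capitals mark matches on either strand to 9 short motifs that were searched.
Serpini2: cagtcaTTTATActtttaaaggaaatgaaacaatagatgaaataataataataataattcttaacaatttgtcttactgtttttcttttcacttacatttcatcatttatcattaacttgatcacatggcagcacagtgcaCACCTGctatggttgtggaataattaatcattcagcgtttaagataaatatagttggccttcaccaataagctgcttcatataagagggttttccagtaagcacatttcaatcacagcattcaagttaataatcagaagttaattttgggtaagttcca
Serpini1: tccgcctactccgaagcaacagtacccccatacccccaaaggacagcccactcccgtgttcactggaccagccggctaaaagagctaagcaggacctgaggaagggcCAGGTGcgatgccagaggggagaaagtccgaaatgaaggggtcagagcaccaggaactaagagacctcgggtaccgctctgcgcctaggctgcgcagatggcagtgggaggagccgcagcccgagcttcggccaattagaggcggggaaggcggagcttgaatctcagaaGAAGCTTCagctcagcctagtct
Serpinh1: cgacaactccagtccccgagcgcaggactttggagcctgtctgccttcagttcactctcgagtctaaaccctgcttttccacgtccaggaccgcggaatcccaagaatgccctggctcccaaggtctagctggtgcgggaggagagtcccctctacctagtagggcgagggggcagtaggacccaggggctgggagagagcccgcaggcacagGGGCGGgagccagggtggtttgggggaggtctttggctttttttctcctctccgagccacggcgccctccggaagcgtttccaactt
Serpina7: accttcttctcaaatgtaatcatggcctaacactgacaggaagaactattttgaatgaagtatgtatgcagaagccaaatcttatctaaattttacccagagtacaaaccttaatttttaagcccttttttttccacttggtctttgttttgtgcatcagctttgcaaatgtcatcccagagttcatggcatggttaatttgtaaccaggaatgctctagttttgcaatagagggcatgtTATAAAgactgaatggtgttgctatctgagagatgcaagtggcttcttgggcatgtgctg
The Serpini2 window held CACCTG, the E-box letters to which the acinar factor PTF1 binds, at positions -109 to -104, and the Serpini1 window held the same letters on the other strand, written CAGGTG, at -143 to -138. These letters stand in 20.2% of all 32851 promoters of this length and in 5 of the 22 members with a promoter entry, the others being Serpinb5, Serpinb6a and Serpinb11. The Serpinh1 window held GGGCGG, a GC box, at -37 to -32, as did 35.7% of promoters. The TATA box letters TATAAA stood in the Serpina7 window at -10 to -5 and on the other strand of the Serpini2 window at -244 to -239, and they stand in 13.6% of promoters. A heat shock element, GAANNTTC, was found in the Serpini1 window at 27 to 34 and in 7.86% of promoters. These exact letters were not found in the window of Serpinh1, whose product is itself a heat shock protein. Other forms of the element were not searched. The AP-1 letters TGANTCA (7.81% of promoters) stood in 5 members, all of clade b on chromosome 1, namely Serpinb2, Serpinb5, Serpinb8, Serpinb10 and Serpinb11. The STAT letters TTCNNNGAA (8.3%) stood in 5 members, among them Serpina3f, Serpina3g and Serpina3i, and the TC-box letters TTTCCC (25.2%) in 9. Neither an NFkB site (0.411%) nor the cAMP response element TGACGTCA (1.79%) stood in a member's window. Motifs were matched by letters alone, and some of these letters overlap in other promoters. A member with 2 promoter entries was counted if either held the letters, whereas the percentages are of single promoters.

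The level of acinar markers differed widely between the obese mice. The mean rlog value of 11 acinar markers was 18.21, 18.31 and 18.57 in the LFD mice, 18.40, 16.36 and 14.42 in HFD mice 1 to 3, and 17.75 and 14.76 in ob/ob mice 1 and 2. HFD mouse 1 thus lay among the LFD mice and HFD mouse 3 and ob/ob mouse 2 lay lowest. All 11 acinar markers were measured and the lowest value of any of 3 of them, Amy2b, Bhlha15 and Rbpjl, was 7.55, so the defining genes of the labelled tissue were present in every mouse. The squamous markers Krt5 and Trp63 were not in the table.

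**Figure D1:**
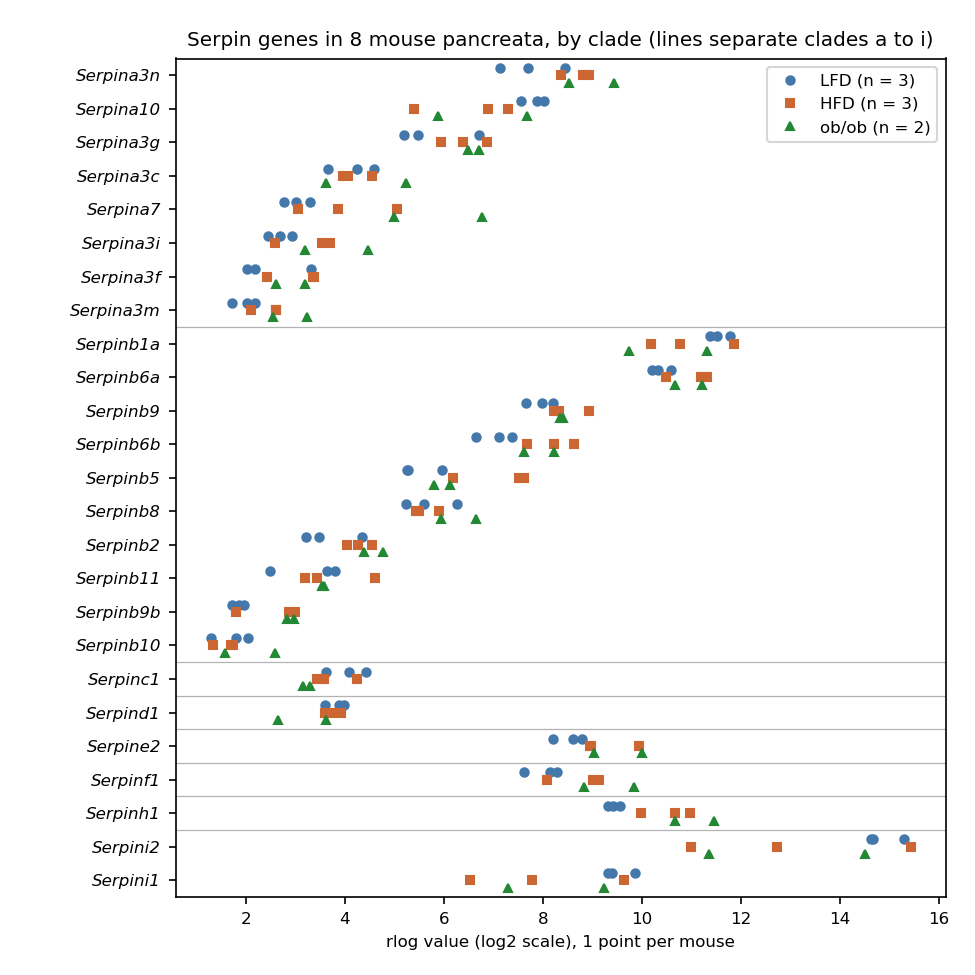
rlog value (log2 scale) of serpin genes, 1 point per mouse, with circles for LFD (n = 3), squares for HFD (n = 3) and triangles for ob/ob (n = 2), and lines between clades. Serpini2 spans the widest range, from 10.99 to 15.43, and the Serpinh1 points of the obese mice all lie to the right of the LFD points.

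In the lean pancreas Serpini2 dominated the family. Per kb of exon, the only scale on which genes were compared with each other, its mean rlog value over the 8 mice was 13.20, followed by 9.87 for Serpinb1a, 8.96 for Serpinh1 and 8.31 for Serpinb6a. At the low end were Serpinb10 with -0.04, and Serpinb9b and Serpinc1 with 0.64 each. Of the summed linear values per base of exon of all 26 genes, Serpini2 took 88.7%, 87.6% and 91.3% in the LFD mice. In the HFD mice its share was 91%, 61.1% and 32.4%, and in the ob/ob mice 83.4% and 37.1%. The mice with a low share were those with low acinar markers, whose Serpinh1 share reached 10.4% in HFD mouse 2, 15% in HFD mouse 3 and 23% in ob/ob mouse 2, against 0.835% to 1.46% in LFD mice.

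More serpin genes lay above than below the lean values. In HFD against LFD, 18 of 26 members had a difference above 0 (52.4% of all genes had), and the median difference was 0.57 on the log2 scale beside 0.03 for all genes. In ob/ob against LFD 20 of 26 did (53.1% of all genes), with a median of 0.59 beside 0.04. After correction over all 15047 genes no member passed an adjusted p-value of 0.05 in limma, and no gene of the table did (0% called), the smallest adjusted p-values of any gene being 0.0864 in HFD and 0.135 in ob/ob. An unadjusted p-value under 0.05 was reached by 8 members in HFD, beside 19.8% of all genes. Of these 7 were higher (11.5% of all genes), among them Serpina3n, Serpinb5, Serpinb6a, Serpinb6b, Serpinb9 and Serpinh1, and 1 was lower (8.35%), namely Serpina10. In ob/ob 10 members reached it, all higher than in LFD (11.6% of all genes were higher and 7.18% lower, 18.8% in all), namely Serpina3i, Serpina3m, Serpina3n, Serpina7, Serpinb2, Serpinb6b, Serpinb9b, Serpine2, Serpinf1 and Serpinh1. With each mouse centred on its median the higher and lower members were 5 and 1 in HFD (9.9% and 10.6% of all genes) and 9 and 1 in ob/ob (10% and 9.15%), Serpinc1 being the lower one. The HFD count was 3 without LFD mouse 1 (12.9% of all genes), 3 without HFD mouse 2 (9.84%) and 14 without HFD mouse 1 (36.2%). Without HFD mouse 1, 8 members also passed the adjusted threshold in HFD against LFD, as did 18.7% of all genes, among them Serpinb5, Serpinb6a, Serpinb6b, Serpinb9b and Serpinh1, which were higher, and Serpini1 and Serpini2, which were lower. The ob/ob count was 6 without LFD mouse 1 (13% of all genes) and 6 without LFD mouse 3 (10.4%). Leaving out an ob/ob mouse leaves 1 in that group. The median difference of the members was then 0.62 without ob/ob mouse 1 and 0.61 without ob/ob mouse 2. Single members depended on the mouse left out. In the same order, Serpina10 was at -1.94 and -0.14, Serpinb1a at -1.81 and -0.24, and Serpina7 at 1.96 and 3.74.

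The same was counted for both obese groups against LFD, which share the LFD mice with the comparisons above. With the mean of HFD and ob/ob, 14 members reached an unadjusted p-value under 0.05 (25.4% of all genes), 13 of them higher (14.5%) and only Serpina10 lower (10.9%), 20 of 26 had a difference above 0 (53.5%), and the median difference was 0.65 beside 0.04. Centred on the median of each mouse, 11 were higher (12.1%) and 1 lower (14%). The count of 14 was 8 without LFD mouse 1 (16.8% of all genes), and 9 without LFD mouse 3 (13.5%), without HFD mouse 2 (18.3%) or without ob/ob mouse 2 (14.1%). No member and no gene (0%) passed the adjusted threshold, whereas without HFD mouse 1 11 members did, beside 22.1% of all genes. Without ob/ob mouse 1 Serpinh1 alone among the members passed it, beside 3.16% of all genes.

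**Figure D2:**
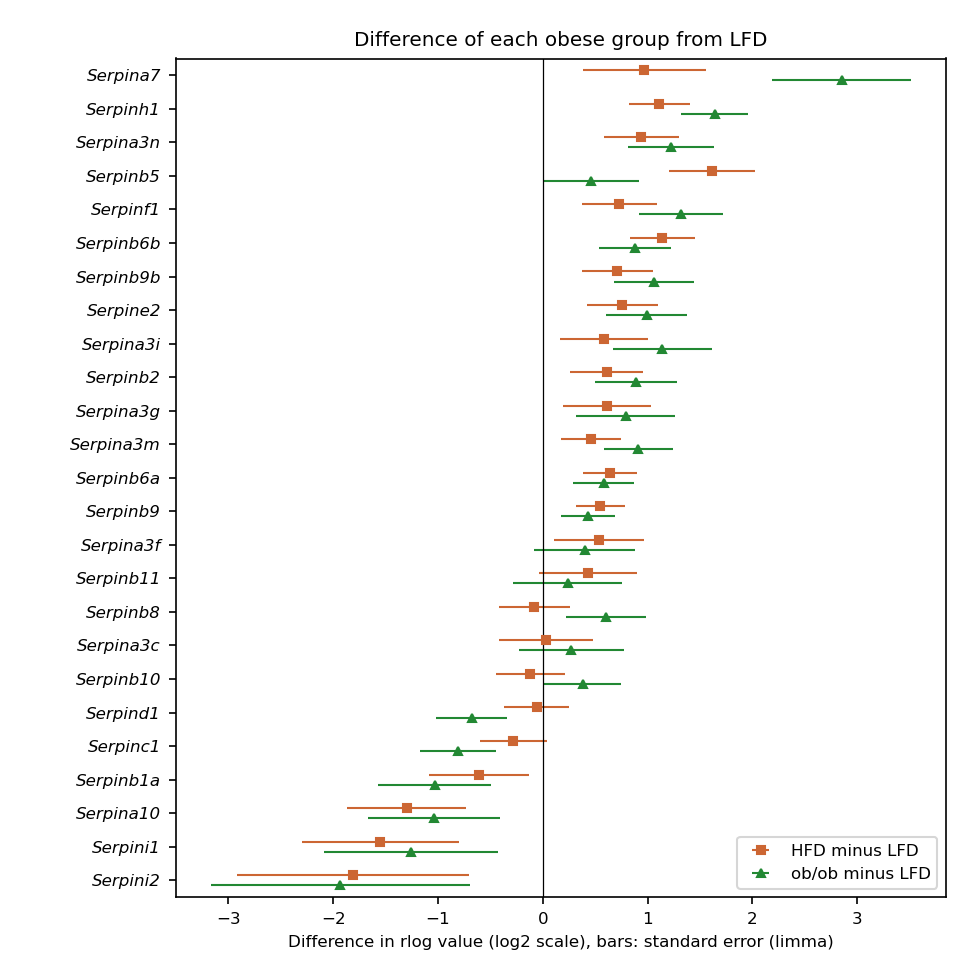
Difference of serpin genes from LFD in rlog value (log2 scale) with its standard error from limma, squares for HFD and triangles for ob/ob, ordered by the difference of both obese groups. Most points lie right of 0, led by Serpina7 in ob/ob with 2.85. Serpini2, Serpini1, Serpina10, Serpinb1a, Serpinc1 and Serpind1 lie left of 0 in both groups.

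Read by mouse, the excess of higher members was not equal in all obese mice. HFD mouse 1 had 8 members above all 3 LFD mice, 2 below and 16 within their range. In HFD mouse 2 there were 16 above and 5 below, in HFD mouse 3 14 above and 4 below, in ob/ob mouse 1 16 above and 4 below, and in ob/ob mouse 2 14 above and 7 below. The share of members above the LFD range was 30.8% in HFD mouse 1, near the 26.4% of all genes, and 53.8% to 61.5% in the other 4 obese mice, in which 31.2% to 41.2% of all genes lay above. Below the LFD range lay 7.69% of members in HFD mouse 1, beside 27.8% of all genes. In the other 4 obese mice 15.4% to 26.9% of members lay below, beside 30% to 36.2% of all genes. The ob/ob mouse 1, whose acinar markers were close to lean values, had as many members above as HFD mouse 2.

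**Figure D3:**
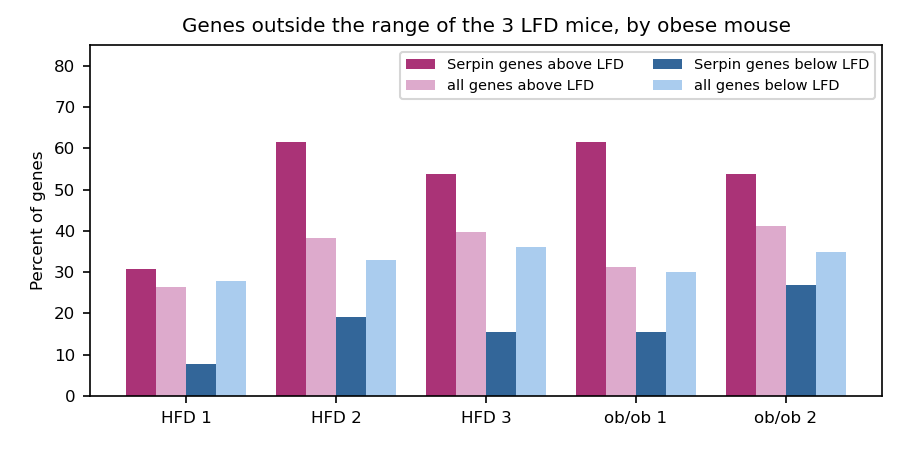
Percent of serpin genes (dark bars) and of all 15047 genes (pale bars) that lay above (red) or below (blue) all 3 LFD mice, for each obese mouse. In HFD 1 the serpin share above the LFD range is 30.8% beside 26.4% of all genes, and in the other 4 mice it is at least 53.8%.

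Clade i held the genes with the lowest values relative to lean tissue, Serpini2 and Serpini1, which lie 287468 bases apart on chromosome 3 (chr3:75242370-75270078 and chr3:75557547-75643495, GRCm38). Serpini2 had rlog values of 14.62, 14.67 and 15.29 in the LFD mice, 15.43, 12.73 and 10.99 in the HFD mice, and 14.50 and 11.36 in the ob/ob mice. HFD mouse 1 had the highest value of all, HFD mouse 3 and ob/ob mouse 2 the lowest, and both ob/ob mice lay below all LFD mice. The mean difference from LFD was -1.81 ± 1.11 (SE, adjusted p = 0.375) in HFD and -1.93 ± 1.24 (adjusted p = 0.393) in ob/ob. The values of Serpini2 stood in nearly the order of the acinar marker means, and with that mean as a covariate the differences were 0.36 and 0.39. In bulk tissue, fewer acinar cells and less RNA per acinar cell cannot be told apart. Over the alternatives the adjusted p of Serpini2 ranged from 0.0104 to 0.781 in HFD and from 0.163 to 0.977 in ob/ob.

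Serpini1 encodes neuroserpin, an inhibitor of the plasminogen activator Plat that is known from neurons, and it was chosen for description after its values were seen. It had values of 9.32, 9.39 and 9.87 in LFD, 9.63, 7.78 and 6.52 in HFD, and 9.23 and 7.30 in ob/ob. The mice thus stood in nearly the same order as for Serpini2, and 99.38% of the 31-base words of Serpini1 transcripts occur in no other gene. The difference was -1.55 ± 0.75 (adjusted p = 0.283) in HFD and -1.26 ± 0.83 (adjusted p = 0.408) in ob/ob. Its neighbour Pdcd10 starts 690 bases away on the opposite strand. Pdcd10, also singled out after its values were seen, had 8.01 to 8.41 in LFD and 8.49 to 8.84 in the obese mice, so its obese values lay above lean values where those of Serpini1 lay below or among them. Of 3 neuronal and Schwann cell markers measured, 1 was higher and 0 lower at an unadjusted p-value under 0.05 in HFD (11.5% and 8.35% of all genes). Their summed level was 5.52 to 5.82 in LFD and 5.73 to 7.45 in the obese mice, which is not the order of Serpini1. The part of other cell types in the Serpini1 values was not tested.

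A further pair with lower means was Serpinb1a, an intracellular inhibitor of neutrophil elastase and cathepsin G, and Serpina10, which inhibits coagulation factor Xa with protein Z. Serpinb1a had 11.37, 11.51 and 11.79 in LFD, 11.86, 10.19 and 10.77 in HFD, and 11.32 and 9.74 in ob/ob. HFD mouse 1 was again highest, but HFD mouse 2 lay below HFD mouse 3, which is not the order of the acinar markers. Its differences of -0.61 ± 0.48 (adjusted p = 0.485) in HFD and -1.03 ± 0.54 (adjusted p = 0.322) in ob/ob did not pass. Serpina10, which the textbooks place in the liver, had 7.55, 8.03 and 7.89 in LFD, 7.29, 6.90 and 5.40 in HFD, and 7.69 and 5.88 in ob/ob. All HFD mice lay below all LFD mice and ob/ob mouse 1 lay among them, with a difference of -1.30 ± 0.57 (adjusted p = 0.251) in HFD and -1.04 ± 0.63 (adjusted p = 0.371) in ob/ob. The hepatocyte marker Alb had 5.51 to 5.89 in LFD, 6.20, 5.01 and 3.62 in HFD, and 6.18 and 4.10 in ob/ob, so its lowest values were in the same mice as those of Serpina10. The summed level of 5 hepatocyte markers was 8.89 to 9.32 in LFD, 8.79, 7.86 and 13.48 in HFD, and 9.68 and 8.48 in ob/ob, and the 13.48 came from Apoa1 alone, at 13.46 in HFD mouse 3.

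**Figure D4:**
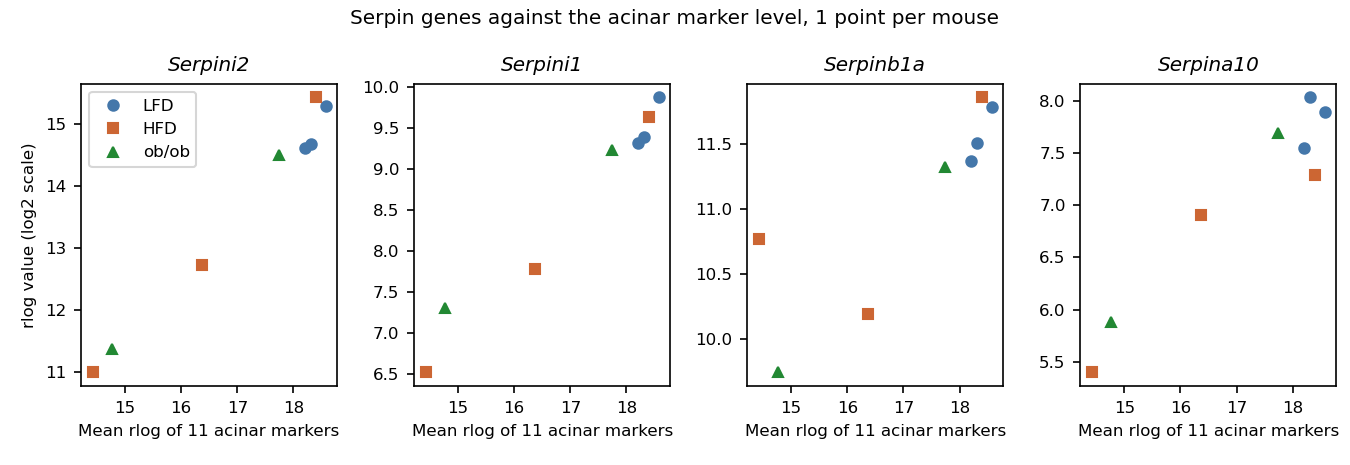
rlog value (log2 scale) of Serpini2, Serpini1, Serpinb1a and Serpina10 against the mean rlog value of 11 acinar markers, 1 point per mouse, with circles for LFD, squares for HFD and triangles for ob/ob. The LFD mice, HFD 1 and ob/ob 1 sit at the right, and Serpini2 goes from 10.99 in the mouse with the lowest acinar level, 14.42, to over 14 in those 5 mice.

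Serpinh1, the only member of clade h, encodes HSP47, which holds the collagen triple helix together in the endoplasmic reticulum and is made wherever collagen is made. It had 9.42, 9.56 and 9.31 in LFD, 9.98, 10.97 and 10.67 in HFD, and 10.67 and 11.46 in ob/ob. All 5 obese mice lay above all LFD mice, HFD mouse 1 being the closest to them. The mean was above LFD by 1.11 ± 0.29 (2.16-fold on the rlog scale, adjusted p = 0.18) in HFD, by 1.64 ± 0.32 (3.11-fold, adjusted p = 0.139) in ob/ob, and by 1.37 ± 0.26 (2.59-fold, adjusted p = 0.0863) in both together, the smallest adjusted p of any serpin. That last adjusted p ranged from 0.0054 to 0.361 over the alternatives, and the difference stayed above 0 in each, from 0.95 to 1.57. Of 21 genes for collagens and their folding and secretion, 11 were higher and 4 lower in both obese groups against LFD at an unadjusted p-value under 0.05. Of all genes 14.5% were higher and 10.9% lower. The 21 genes had a median difference of 0.52, and none of them passed the adjusted threshold. Col1a1, the main chain of type I collagen, had 8.89 to 9.79 in LFD, 10.63, 11.28 and 12.53 in HFD, and 11.29 and 11.72 in ob/ob, with a difference of 2.17 ± 0.40 (adjusted p = 0.0853). Col1a2 differed by 1.70 ± 0.36 and Sparc, a collagen-binding matrix protein, by 1.65 ± 0.36. The general chaperone Hspa5, named after its values were seen, differed by -0.75 ± 0.28 (adjusted p = 0.151). The summed level of 7 fibroblast markers was 13.49 to 13.77 in LFD and 14.12 to 15.74 in the obese mice. At an unadjusted p-value under 0.05, 6 of the 7 were higher (14.5% of all genes). Col1a1 and Col1a2 stand both among these markers and among the 21 genes above, so the lists overlap. The part of fibroblasts in the Serpinh1 values was not tested.

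Clade e holds inhibitors of plasminogen activation. Serpine2, protease nexin 1, which inhibits thrombin and plasminogen activators at the cell surface, had 8.61, 8.79 and 8.20 in LFD, 8.95, 9.95 and 8.97 in HFD, and 9.03 and 10.01 in ob/ob. All obese mice lay above all LFD mice, HFD mouse 2 and ob/ob mouse 2 being highest, with differences of 0.76 ± 0.34 (adjusted p = 0.265) and 0.99 ± 0.39 (adjusted p = 0.241).

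A list of fibrinolysis proteases and receptors, which also held Hgf, Hgfac and Procr, was counted beside it. Of 10 genes measured of 14 listed, 7 were higher and 1 lower in both obese groups against LFD at an unadjusted p-value under 0.05. Of all genes 14.5% were higher and 10.9% lower. The 10 genes had a median difference of 1.09, and none of them passed the adjusted threshold. The highest summed level, 13.68, was in HFD mouse 2, whereas LFD mice had 11.92 to 12.11 and HFD mouse 1 had 12.20. The plasminogen activator Plat had 7.95 to 8.22 in LFD, 8.37, 10.19 and 9.64 in HFD, and 8.80 and 9.92 in ob/ob, a difference of 1.28 ± 0.41 (adjusted p = 0.128). The urokinase receptor Plaur had 6.59 to 6.98 in LFD, 6.62, 9.08 and 9.20 in HFD, and 7.57 and 8.29 in ob/ob, HFD mouse 1 lying within the LFD range. Procr, the protein C receptor, differed by 0.99 ± 0.25, and Hgf by 1.52 ± 0.38 in ob/ob. Hgfac, the protease that activates Hgf, differed by -1.67 ± 0.41 (adjusted p = 0.107), with 9.95 to 10.18 in LFD and 7.17 to 9.41 in the obese mice. Vtn, the matrix and plasma protein vitronectin, had 10.13 to 10.22 in LFD and 9.81, 8.14, 6.73, 9.60 and 6.91 in the obese mice in order.

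Serpinf1, PEDF, is a secreted serpin without inhibitory action, known as an inhibitor of vessel growth and as a product of fat cells and fibroblasts. It had 8.14, 8.29 and 7.62 in LFD, 8.08, 9.14 and 9.02 in HFD, and 8.83 and 9.84 in ob/ob. HFD mouse 1 lay among the LFD mice and both ob/ob mice lay above them. Differences were 0.73 ± 0.36 (adjusted p = 0.29) and 1.32 ± 0.40 (adjusted p = 0.204). Of 8 genes for its receptors and partners, 1 was higher and 0 lower at an unadjusted p-value under 0.05 in both obese groups (14.5% and 10.9% of all genes). Their median was -0.03, and the higher one was Plxdc2, at 0.70 ± 0.23. The summed level of 5 adipocyte markers was 9.25 to 9.93 in LFD, 9.40 to 9.63 in HFD, and 10.13 and 8.68 in ob/ob, so ob/ob mouse 2, highest for Serpinf1, was lowest for them. The 7 fibroblast markers had a summed level of 13.49 to 13.77 in LFD, 14.12, 14.73 and 15.34 in HFD, and 14.60 and 15.74 in ob/ob, highest in ob/ob mouse 2 as was Serpinf1. The part of either cell type in the Serpinf1 values was not tested.

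Serpina7, on the X chromosome, encodes thyroxine-binding globulin, a carrier of thyroid hormone that is known from the liver and blood. It had values of 2.78, 3.30 and 3.01 in LFD, 5.06, 3.87 and 3.05 in HFD, and 6.77 and 4.99 in ob/ob. ob/ob mouse 1 was highest, HFD mouse 1 and ob/ob mouse 2 followed, and HFD mouse 3 lay within the LFD range. The difference from LFD was 0.97 ± 0.59 (adjusted p = 0.371) in HFD and 2.85 ± 0.66 (7.21-fold on the rlog scale, adjusted p = 0.168) in ob/ob, the largest difference of any serpin. The ob/ob difference was 1.96 without ob/ob mouse 1 and 3.74 without ob/ob mouse 2. Within each obese group the mice with more acinar RNA had more Serpina7. With the acinar mean as a covariate, the ob/ob difference was 3.99 with an adjusted p of 0.0114, and Serpina7 was then the only gene of 15047 to pass, in ob/ob against LFD as in both obese groups against LFD. The adjusted p for ob/ob ranged from 0.0114 to 0.714 over the alternatives. In its transcripts all of the 31-base words (100%) were unique to the gene.

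The other genes of hormone transport were counted beside it. Of 14 genes measured for carriers, receptors and enzymes of thyroid and steroid hormones, 3 were higher and 0 lower in ob/ob at an unadjusted p-value under 0.05. Of all genes 11.6% were higher and 7.18% lower. The 14 genes had a median difference of -0.23. Among them Dio2, which activates thyroid hormone, had 2.86 to 3.87 in LFD, 4.32 to 4.50 in HFD, and 4.34 and 5.99 in ob/ob. Ttr, another carrier, had 8.68 to 9.13 in LFD, 8.43, 7.48 and 6.55 in HFD, and 9.32 and 7.98 in ob/ob. The summed level of 5 islet markers was 13.01 to 13.96 in LFD, 13.38, 12.83 and 12.48 in HFD in the order of Serpina7, and 15.09 and 13.92 in ob/ob. Ins1 was higher in ob/ob than in LFD by 1.24 ± 0.38 (adjusted p = 0.208) and the difference of Gcg, glucagon, was -0.35 ± 0.51. LFD mouse 2, with an islet level near that of ob/ob mouse 2, had a Serpina7 value of 3.30 against 4.99. The 5 hepatocyte markers measured did not share 1 pattern. Ahsg, a liver secretory protein, had 2.37 to 3.25 in all mice. Apoa1 had 3.60 to 3.89 in LFD, 3.77, 3.70 and 13.46 in HFD, and 6.51 and 6.29 in ob/ob. Apoa2 had 1.20 to 1.29 in LFD and 1.53 to 2.22 in the obese mice. Alb was highest in HFD mouse 1, at 6.20, and ob/ob mouse 1, at 6.18, and lowest in HFD mouse 3, at 3.62. The part of islet cells or hepatocytes in the Serpina7 values was not tested.

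**Figure D5:**
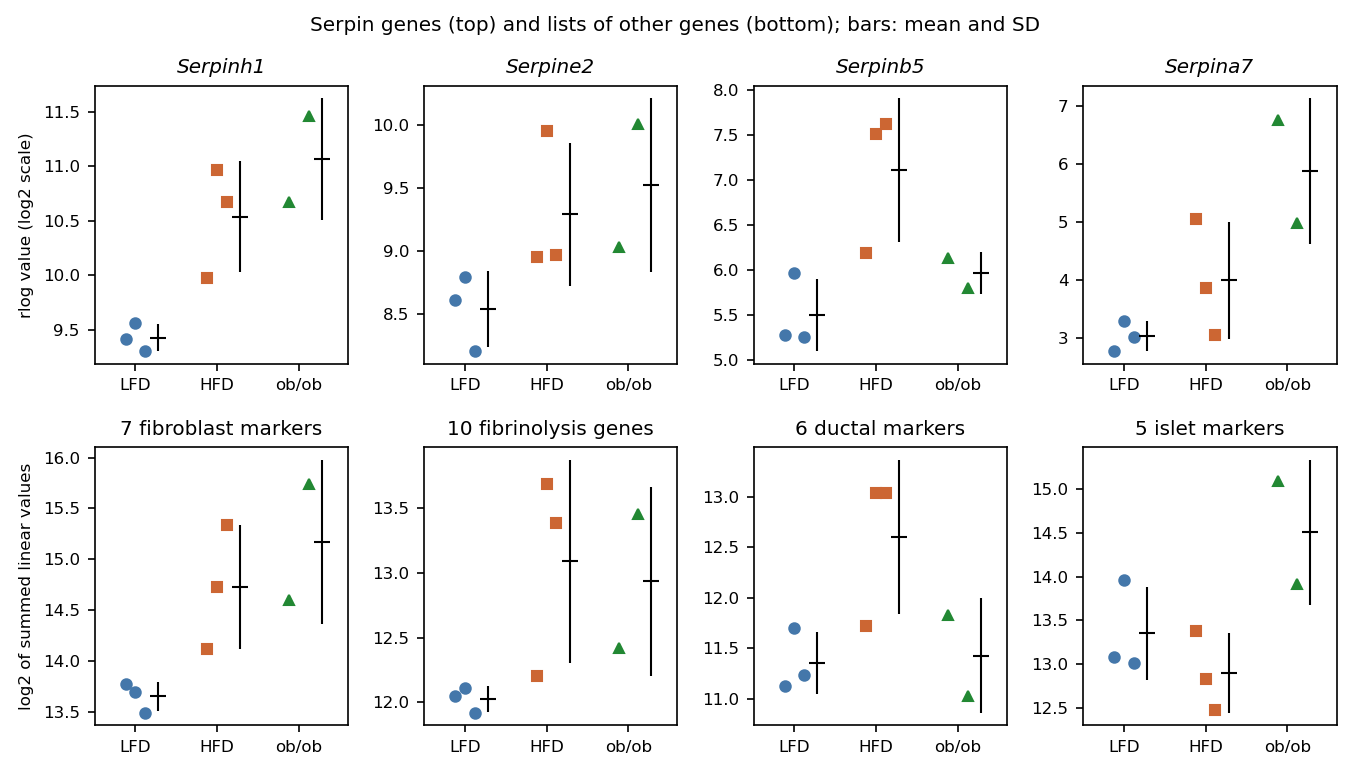
Top, rlog values (log2 scale) of Serpinh1, Serpine2, Serpinb5 and Serpina7 by group. Bottom, log2 of the summed linear values of 7 fibroblast markers, 10 fibrinolysis genes (Hgf, Hgfac and Procr among them), 6 ductal markers and 5 islet markers. Each has 1 point per mouse and black bars for mean and SD. Serpinb5 and the ductal sum are both highest in HFD mice 2 and 3, and Serpina7 and the islet sum are both highest in ob/ob mouse 1.

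The other 7 members of clade a lie together on chromosome 12, and 6 of them belong to the Serpina3 cluster, which in mice has many close copies in place of the single alpha-1-antichymotrypsin gene of humans. Serpina3n, an inducible inhibitor of leukocyte proteases known from the acute phase response, was the most abundant per kb of clade a, at 7.38. It had 7.71, 8.44 and 7.14 in LFD, 8.37, 8.82 and 8.94 in HFD, and 9.44 and 8.53 in ob/ob. Only HFD mouse 1 fell below the highest LFD mouse. The differences were 0.94 ± 0.36 (adjusted p = 0.222) and 1.22 ± 0.41 (adjusted p = 0.215). Serpina3i had 2.94, 2.70 and 2.45 in LFD, 2.59, 3.71 and 3.54 in HFD, and 4.48 and 3.20 in ob/ob, highest in ob/ob mouse 1 as were Serpina3n and Serpina7. For Serpina3m the values were 1.73, 2.02 and 2.19 in LFD, 2.11, 2.61 and 2.61 in HFD, and 3.24 and 2.55 in ob/ob. Their ob/ob differences were 1.14 ± 0.47 (adjusted p = 0.253) and 0.91 ± 0.33 (adjusted p = 0.224). Serpina3c, Serpina3f and Serpina3g overlapped between groups, with ob/ob differences of 0.27, 0.40 and 0.79. The copies are hard to tell apart by short reads. The share of 31-base words found in no other gene was 65.01% for Serpina3m, 71.6% for Serpina3g and 72.7% for Serpina3i. It was 72.74% for Serpina3f, 78.37% for Serpina3n and 83.14% for Serpina3c. Reads shared with Serpina3k or Serpina3h may have been split among the copies.

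In clade b, Serpinb5 was the member that differed most between the obese groups. It encodes maspin, a non-inhibitory epithelial serpin known from ducts and from pancreatic tumours. Values were 5.28, 5.97 and 5.26 in LFD, 6.19, 7.51 and 7.63 in HFD, and 6.13 and 5.80 in ob/ob. All HFD mice lay above all LFD and all ob/ob mice. The difference was 1.61 ± 0.41 (3.05-fold, adjusted p = 0.179) in HFD and 0.46 ± 0.46 (adjusted p = 0.575) in ob/ob. For HFD the adjusted p ranged from 0.000862 to 0.504 over the alternatives. The summed level of 6 ductal markers was 11.13, 11.70 and 11.24 in LFD, 11.72, 13.04 and 13.04 in HFD, and 11.83 and 11.03 in ob/ob. Serpinb5 and this sum were thus both highest in HFD mice 2 and 3. Of the 6 ductal markers, only 4 had a higher mean in HFD than in LFD. At an unadjusted p-value under 0.05, 3 were higher and 0 lower (11.5% and 8.35% of all genes). Krt7, a keratin of ducts, differed by 1.79 ± 0.48 (adjusted p = 0.18) in HFD, with 11.52 and 11.63 in HFD mice 2 and 3. The keratin Krt14 of basal epithelia had 5.39 to 6.85 in LFD and 6.20 to 7.32 in HFD. The part of ductal or graft epithelium in the Serpinb5 values was not tested.

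Serpinb6b, Serpinb6a, Serpinb9 and Serpinb9b, further intracellular members of clade b, had higher means than LFD in both obese groups. Serpinb6b, a relative of the cathepsin G inhibitor Serpinb6a, had 6.65, 7.37 and 7.11 in LFD, 7.68, 8.63 and 8.23 in HFD, and 7.63 and 8.22 in ob/ob. No obese mouse fell into the LFD range, and the differences were 1.14 ± 0.31 (2.2-fold, adjusted p = 0.18) and 0.88 ± 0.34 (1.84-fold, adjusted p = 0.239). Serpinb6a itself had 10.20, 10.32 and 10.58 in LFD, 10.49, 11.32 and 11.20 in HFD, and 10.67 and 11.22 in ob/ob. HFD mouse 1 lay within the LFD range and the other obese mice above it. The differences of 0.64 ± 0.26 (adjusted p = 0.233) and 0.58 ± 0.29 (adjusted p = 0.301) of Serpinb6a are uncertain, since 13.12% of its 31-base words also occur in Nqo2, whose difference in HFD was 0.63 ± 0.20. Serpinb9, the inhibitor of granzyme B that shields cells from cytotoxic granules, had 7.66, 7.98 and 8.20 in LFD, 8.23, 8.93 and 8.33 in HFD, and 8.40 and 8.35 in ob/ob. All obese mice lay above all LFD mice, HFD mouse 1 only just, and the differences were 0.55 ± 0.23 (adjusted p = 0.246) and 0.43 ± 0.26 (adjusted p = 0.373). Its copy Serpinb9b had 1.72, 1.96 and 1.87 in LFD, 1.81, 2.88 and 3.0 in HFD, and 2.84 and 2.97 in ob/ob, with HFD mouse 1 among the LFD mice. The differences of Serpinb9b were 0.71 ± 0.34 (adjusted p = 0.278) and 1.06 ± 0.38 (adjusted p = 0.224).

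Serpinb2, PAI-2, an inhibitor of urokinase made by activated macrophages, had 3.48, 3.21 and 4.35 in LFD, 4.05, 4.26 and 4.55 in HFD, and 4.38 and 4.77 in ob/ob. LFD mouse 3 overlapped the HFD mice, and the differences were 0.61 ± 0.35 (adjusted p = 0.348) and 0.89 ± 0.39 (adjusted p = 0.264). Serpinb2 overlaps Serpinb10 on chromosome 1, and 11.17% of its 31-base words occur there as well. Serpinb8, Serpinb10 and Serpinb11 gave no unadjusted p-value under 0.05 in any comparison and had differences between -0.12 and 0.60 from LFD. The summed level of 5 macrophage markers was 10.92 to 11.59 in LFD and 11.73, 12.49, 12.41, 12.61 and 13.43 in the obese mice in order, and that of 5 neutrophil markers 7.91 to 8.65 in LFD and 9.17 to 11.20 in the obese mice, both without overlap between lean and obese. Their part in the clade b values was not tested.

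A list of leukocyte and mast cell proteases was counted as well. Elane, neutrophil elastase, and Ctsg, cathepsin G, were not in the table. The targets named above for Serpinb1a and Serpinb6a were thus not measured. Of 12 leukocyte and mast cell proteases measured of 17 listed, 5 were higher and 0 lower in both obese groups at an unadjusted p-value under 0.05. Of all genes 14.5% were higher and 10.9% lower. The 12 proteases had a median difference of 0.48. Ctsh, cathepsin H, had 9.05 to 9.41 in LFD and at least 10.01 in each obese mouse, a difference of 1.25 ± 0.23 (adjusted p = 0.0832). Ctss, a cathepsin of antigen-presenting cells, differed by 1.38 ± 0.30 (adjusted p = 0.0945). Gzmb, the target of Serpinb9, was at 1.71 to 2.43 in all mice but HFD mouse 3, where it was 3.5.

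Serpinc1, antithrombin, and Serpind1, heparin cofactor II, both plasma inhibitors of thrombin made by the liver, were low in the pancreas. Serpinc1 had 3.63, 4.08 and 4.43 in LFD, 3.59, 3.45 and 4.24 in HFD, and 3.30 and 3.16 in ob/ob. Both ob/ob mice lay below all other mice, with a difference of -0.81 ± 0.36 (adjusted p = 0.267) from LFD. Reads of Serpinc1 may be shared, since 33.75% of its 31-base words also occur in its neighbour Zbtb37. The difference of Zbtb37 in ob/ob from LFD was -0.08 ± 0.21, and the effect of such sharing was not tested. Serpind1 overlapped between the groups, at -0.06 in HFD and -0.68 in ob/ob. Among their partners, 14 of 19 coagulation genes were measured, of which 7 were higher and 0 lower in both obese groups at an unadjusted p-value under 0.05. Of all genes 14.5% were higher and 10.9% lower. The 14 coagulation genes had a median difference of 0.84. F13a1, the factor XIII subunit that macrophages also make, had 9.36 to 9.78 in LFD, 9.66 to 10.03 in HFD, and 10.70 and 11.78 in ob/ob. Tfpi2, an inhibitor of the tissue factor pathway, differed by 1.32 ± 0.28 (adjusted p = 0.0926) and Pros1, protein S, by 0.87 ± 0.21. F2, prothrombin, the target of antithrombin, had 5.75 to 6.61 in LFD, 5.54, 4.28 and 2.83 in HFD, and 6.01 and 3.54 in ob/ob, low in the same mice as Serpina10.

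Digestive proteases, other inhibitors and serpin receptors gave the background to these values. Their counts are for both obese groups against LFD at an unadjusted p-value under 0.05, where 14.5% of all genes were higher and 10.9% lower. All 11 pancreatic serine proteases measured had lower means in both obese groups, with 0 higher and 3 lower at an unadjusted p-value under 0.05 and a median of -2.17, and Ctrc, chymotrypsin C, went from 12.01 to 12.44 in LFD to 8.06 in HFD mouse 3 and 8.17 in ob/ob mouse 2. Serpini2 was low in the same mice, as was the trypsin inhibitor Spink1, with 14.00 to 14.68 in LFD and 11.29 and 10.92 in these mice. Of 20 other protease inhibitors, 1 was higher and 4 were lower, with a median of -0.07. The higher one was A2m, the broad protease trap of plasma, with 4.47 to 5.24 in LFD, 6.08 to 7.03 in HFD, and 7.72 and 7.58 in ob/ob, a difference of 2.17 ± 0.29 (adjusted p = 0.0712). Of 12 cofactors and clearance receptors, 4 were higher and 2 lower, with a median of 0.45. Lrp1, the receptor that clears serpin complexes, had 10.23 to 10.74 in LFD and 10.54 to 12.36 in the obese mice. Of 12 membrane serine proteases and kallikreins, 1 was higher and 2 were lower, with a median of 0.17.

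Between the obese groups, 15 of 26 members had a higher mean in ob/ob (51.7% of all genes), and 2 reached an unadjusted p-value under 0.05 (3.91%), 1 higher (2.28%) and 1 lower (1.63%), also after centring each mouse on its median (2.33% and 1.71%). The difference of ob/ob from HFD was 1.88 ± 0.66 for Serpina7 and -1.15 ± 0.46 for Serpinb5, both with an adjusted p of 1, and no gene (0%) passed the adjusted threshold. The count was 0 without HFD mouse 3 (3.38% of all genes) and 1, Serpina7, without HFD mouse 2 (3.86%). Over the alternatives the difference kept its sign, from 1.00 to 2.77 for Serpina7 and from -1.61 to -0.72 for Serpinb5, and the adjusted p ranged from 0.142 to 1 and from 0.242 to 1. The groups did not overlap in 3 members (13.3% of all genes), namely Serpinb8, which was higher in ob/ob (7.92%), and Serpinb5 and Serpinc1, which were lower (5.42%).

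Counted by overlap alone, HFD and LFD were apart in 6 members (25.2% of all genes), 5 of them higher (12.9%). The ob/ob and LFD mice were apart in 17 (45.9%), 13 of them higher (24.1%) and 4 lower (21.8%), the lower ones being Serpinb1a, Serpinc1, Serpini1 and Serpini2. All 5 obese mice were apart from all LFD mice in 4 members (18.4%), namely Serpinb6b, Serpinb9, Serpine2 and Serpinh1, each of them higher (9.4%). By clade, the median difference of both obese groups from LFD was 0.69 in clade a, 0.55 in clade b and -1.64 in clade i, beside 0.04 for all genes.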

How the data were processed

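The authors sequenced paired-end libraries of total RNA, quantified Gencode M18 transcripts (GRCm38.p6) with Salmon 0.11.3, summed them by gene with tximport and deposited rlog values of DESeq2 1.22.2, which are on a log2 scale. The filter that left 15047 genes is not given in the sources used here. Salmon assigns a read that fits several transcripts in proportion, so values of paralogs and overlapping genes are uncertain. Groups were compared by limma 3.58.1 (R 4.3.3) on all genes and 8 mice, with a mean for each group, a trend on the mean and Benjamini-Hochberg adjustment. Limma was used because the deposited log2 values do not permit the count test of the study. The script was tested on simulated data of 15047 genes, 200 of them changed, in HFD against LFD. At an adjusted p-value under 0.05 it recovered 0% of changes of 2 SD, 40% of 4 SD and 96% of 8 SD, with 11 false calls. Changes of 2 to 4 SD would thus often be missed with these group sizes. Replicates are different mice, so p-values measure the spread between animals.

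The members and lists were chosen with earlier results of these data known. Genes named with the value of every mouse are Serpina7 and Serpini2, members with an unadjusted p-value under 0.05 in any comparison (at most 20), the 3 highest per kb of exon, and members whose serum protein the study lists. The values of 1 member, which is included in the counts, are not reported here. Of the last, Serpina1d and Serpina1e were not analysed here. At most 3 genes of each list were named by smallest p. Serpini1, Pdcd10, Hspa5 and Serpinb8 were chosen after their values were seen. So were Plat, Plaur, Gcg, Ahsg, Alb, Nqo2, Zbtb37, Gzmb, F2, Spink1 and Lrp1, which are partners, markers or neighbours of members. Summed list levels are log2 of the summed linear values. Coordinates, exon lengths and 31-base words are those of Gencode M21 on GRCm38, and promoters those of RefSeq, with entries for 22 of 26 members. The alternatives were no trend, only the groups compared, dropping genes with a mean rlog under 5, centring on each mouse's median, quantile normalization, array weights, a replicate block, the acinar mean as covariate, and leaving out each mouse. Leaving out HFD mouse 3 and ob/ob mouse 2 together was added after seeing the data. Other marker lists (endothelial, mesothelial, squamous and lymphocyte) gave 0, 0, 0 and 0 higher genes in both obese groups against LFD at an unadjusted p-value under 0.05 (14.5% of all genes). Lower ones numbered 0, 2, 0 and 0 (10.9% of all genes).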

Additional observations from a re-analysis of the deposited data

How the results depend on the processing

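In HFD against LFD, the 8 members with an unadjusted p-value under 0.05 became 5 without the trend (18.7% of all genes), 22 with array weights (52.7%) and 5 with the acinar covariate (10.2%), and 3 to 14 when 1 mouse was left out. In ob/ob against LFD, the 10 became 5 with the filter on low values (19.9%), which leaves 15 members, 5 with the acinar covariate (9.82%) and 5 without HFD mouse 3 and ob/ob mouse 2 (6.18%), and 5 to 12 with 1 mouse left out. In ob/ob against HFD, the 2 became 1 with only the groups compared (2.35%), 1 with the filter (3.29%) and 4 with the covariate (7.88%), and 0 to 3 with 1 mouse left out. In both obese groups against LFD, the 14 became 9 with the filter (27.5%), 4 with the covariate (10.8%) and 9 without HFD mouse 3 and ob/ob mouse 2 (13.1%), and 8 to 18 with 1 mouse left out. No fit of only the groups compared exists for the last comparison, which uses all mice.

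The count of 0 members with an adjusted p-value under 0.05 became 19 in HFD (44.2% of all genes) and 16 in both obese groups (28.5%) with array weights, which did not converge and gave HFD mouse 2 a weight of 9.36. It became 1 with the acinar covariate in ob/ob and in both obese groups, the only gene to pass in each (0.00665%). With 1 mouse left out it ranged from 0 to 8 in HFD, 0 to 1 in ob/ob and 0 to 11 in both. The acinar covariate reversed Serpina10 in ob/ob (0.06), Serpinb1a in HFD (0.12), Serpini1 in ob/ob (0.30) and in both (0.10), and Serpini2 in HFD (0.36), ob/ob (0.39) and both (0.37). Of 965 other values for 59 named differences, 902 kept direction and side of the threshold and 56 came to pass it. None passed it in the fit reported, so none could lose it. The causes were not tested.

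Deviations of mice with the same replicate number correlated with r = -0.06, 0.11 and -0.28 between LFD and HFD, -0.10 and 0.13 between LFD and ob/ob, and 0.59 and 0.30 between HFD and ob/ob. Not every pair was over 0.1 and the labels tie no number to a shared litter or day, so the numbers were not taken to pair the mice. With the replicate block the counts at unadjusted p under 0.05 were 10 for HFD (21.6% of all genes), 11 for ob/ob (21.6%) and 15 for both obese groups (27.6%) against LFD, and 1 between the obese groups (3.1%), and 0 members passed the adjusted threshold. Depth is unknown, and 2 or 3 mice a group limit every value.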
